A study of Mus musculus with 96 samples.

Results

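Messenger RNA of 10 genes that mark astrocytes, at rest or after injury, was followed across mouse hippocampus and prefrontal cortex. The genes are Slc1a2, Slc1a3, Aqp4, Gja1, Gjb6, Aldh1l1, S100b, Gfap, Vim and Serpina3n. They were taken by symbol from a table of 22709 genes, and the choice was made with earlier results of these data known. All 10 were present and passed the filter on low values in both tissues. Bulk RNA was sequenced from 48 libraries of hippocampus and 48 of prefrontal cortex. In each tissue, mothers had undergone maternal immune activation (MIA) or received saline, and the animals carried the label control or Plexxikon. The study's design text names the latter PLX5622, an inhibitor of the receptor CSF1R that microglia need to survive, injected to target and renew microglia. Females and males were kept as separate groups, which gives 8 groups per tissue. Each group held 6 libraries, except MIA control females with 7 and MIA control males with 5 in each tissue. The sources used here do not give the agent that activated the maternal immune system, the dose and timing of the inhibitor, or the age, strain and litter of the animals. They also do not say whether a sample number stands for 1 animal in both tissues, or whether libraries of a group come from separate litters. The p-values below therefore measure the spread between libraries, and libraries of a shared litter would make those for MIA too small.

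Astrocytes clear transmitter from the synapse, buffer potassium and water at the vessel wall, and pass ions and metabolites to one another through gap junctions. Slc1a2 and Slc1a3 encode the glutamate transporters GLT-1 and GLAST. Aqp4 encodes the water channel of the endfeet around vessels, Gja1 and Gjb6 encode the gap junction proteins connexin 43 and connexin 30, Aldh1l1 encodes a folate enzyme used as a marker of the whole astrocyte population, and S100b encodes a calcium-binding protein that some oligodendrocyte lineage cells also make. After injury or inflammation astrocytes become reactive: they raise the intermediate filament proteins encoded by Gfap and Vim and the secreted protease inhibitor encoded by Serpina3n. Vim is also made by endothelial and ependymal cells, and Gfap by neural stem cells of the adult brain.

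The promoters of the 3 reactive markers are shown because the results turn on these genes. They come from RefSeq (GRCm38.p6), in which 9 of the 10 genes were matched, and each run is the 250 bases before the start of the gene, 5′ to 3′ on the gene's own strand. The Gfap run lies at chr11:102897201-102897450 on the minus strand, the Vim run at chr2:13574061-13574310 on the plus strand, and the Serpina3n run at chr12:104406458-104406707 on the plus strand. Capitals mark matches to 3 patterns, searched on both strands. The pattern searched under the name of nuclear factor kappa B was GGGA, then 5 bases of any kind, then CC. Other spacings and forms of this factor's site were not searched, so a match is not a match to its consensus. The pattern of the glucocorticoid receptor is ACANNNTGT, and that of the core promoter box is TATAAA. No matches overlapped.
Gfap: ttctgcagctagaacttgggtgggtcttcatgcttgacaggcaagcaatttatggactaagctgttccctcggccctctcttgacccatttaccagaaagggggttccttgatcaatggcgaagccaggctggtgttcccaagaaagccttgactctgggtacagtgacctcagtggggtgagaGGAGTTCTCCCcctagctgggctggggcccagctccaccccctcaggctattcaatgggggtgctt
Vim: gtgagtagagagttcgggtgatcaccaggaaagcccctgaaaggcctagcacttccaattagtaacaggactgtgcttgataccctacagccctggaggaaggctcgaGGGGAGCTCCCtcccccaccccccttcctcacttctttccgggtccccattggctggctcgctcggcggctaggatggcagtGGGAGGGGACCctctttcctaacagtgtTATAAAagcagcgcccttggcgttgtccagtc
Serpina3n: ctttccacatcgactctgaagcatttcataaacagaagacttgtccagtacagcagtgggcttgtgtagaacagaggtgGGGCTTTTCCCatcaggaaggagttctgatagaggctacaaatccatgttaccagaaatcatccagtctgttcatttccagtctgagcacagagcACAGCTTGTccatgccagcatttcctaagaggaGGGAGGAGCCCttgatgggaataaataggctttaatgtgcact
All 3 runs held the searched GGGA pattern, at 1 place in Gfap (bases -66 to -56 from the start) and at 2 places each in Vim (-142 to -132 and -60 to -50) and Serpina3n (-171 to -161 and -43 to -33). This pattern was in 16.5% of 32851 promoters of the same length. Serpina3n also held ACANNNTGT at -76 to -68, a pattern in 5.84% of promoters that Slc1a2 held too. Vim held TATAAA at -32 to -27, found in 12.4% of promoters and also in Slc1a3. Of 3 more patterns, the STAT pattern TTCNNNGAA (7.02% of promoters) was in Slc1a3, TGANTCA (6.75%) was in Gja1, and the nuclear factor I pattern, TTGGC, then 5 bases of any kind, then GCCAA (0.0365%), was in 0 of the 9. These 6 patterns were kept after matches of a wider set had been seen, and the promoters shown were chosen with the genes' values known. A match describes letters in this window only.

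Compared per kilobase of exon, Slc1a2 was the most abundant of the 10 messages in both tissues, at a median normalized count of 8320 per kb in hippocampus and 7538 per kb in prefrontal cortex. It was the 1 gene whose range over 48 libraries did not overlap that of the next gene. In hippocampus Slc1a3 (2163 per kb) and Gfap (2147 per kb) came next, and Slc1a3 exceeded Gfap in 24 of 48 libraries, so their order was not resolved. S100b (1378 per kb) and Serpina3n (890 per kb) followed. Aqp4 (739 per kb), Gja1 (661 per kb) and Gjb6 (658 per kb) lay close together, Gja1 exceeding Gjb6 in 23 of 48 libraries. Aldh1l1 (302 per kb) and Vim (198 per kb) were the lowest.
In prefrontal cortex the order behind Slc1a2 and Slc1a3 (1987 per kb) differed. S100b stood at 1499 per kb and Gfap at 764 per kb. Aqp4 (602 per kb), Gjb6 (540 per kb) and Gja1 (509 per kb) were again close, Aqp4 exceeding Gjb6 in 31 of 48 libraries. Aldh1l1 followed at 340 per kb, and Serpina3n, above Aqp4 in 41 of 48 hippocampal libraries, lay next to last at 187 per kb, above Vim (167 per kb) in 37 of 48 libraries. The lowest read number of any of the 10 genes in any library was 290, for Serpina3n in prefrontal cortex, so counting error was small beside the spread between libraries.

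**Figure D1:**
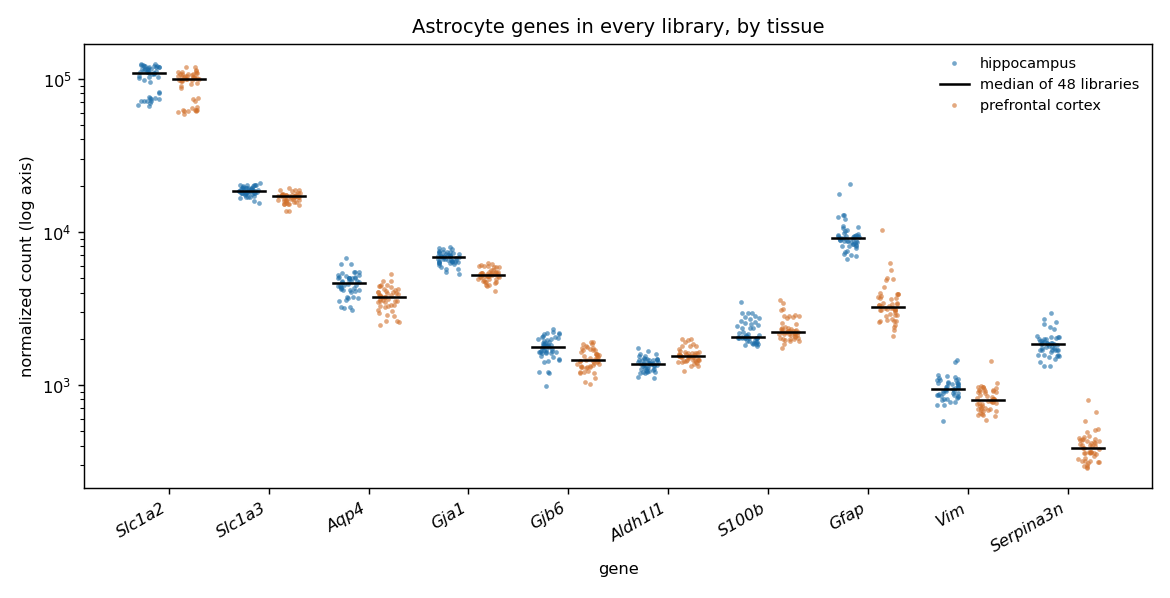
Normalized counts of the 10 genes (log axis) in every hippocampal and prefrontal library. Serpina3n is the gene whose 48 hippocampal values all lie above its 48 prefrontal values, and Gfap comes close to it.

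Of the 10 genes, Serpina3n and Gfap differed most between the tissues. Serpina3n ranged from 1318 to 2921 normalized counts in hippocampus (median 1836) and from 287 to 790 in prefrontal cortex (median 385). Every hippocampal library lay above every prefrontal one. The log2 difference, hippocampus minus prefrontal cortex, was 2.22 ± 0.06 (SE; limma, adjusted p = 5.63e-55). The median ratio over the 48 labels was 4.79 (range 2.36 to 6.56). Gfap, the main filament protein of astrocytes, ranged from 6591 to 20583 (median 9057) in hippocampus and from 2087 to 10269 (median 3222) in prefrontal cortex. The ranges overlapped only because of 1 prefrontal library, a saline PLX female. The log2 difference of Gfap was 1.46 ± 0.07 (adjusted p = 1.06e-33), with a higher hippocampal value for 48 of 48 labels. Vim, the other filament gene, differed by 0.23 ± 0.05 (adjusted p = 1.69e-05), and was higher in hippocampus for 40 of 48 labels.
Among the genes of resting function, 5 were higher in hippocampus, and 3 of these (Gja1, Aqp4 and Gjb6) differed by more than Vim. Gja1 differed by 0.36 ± 0.03 on the log2 scale and was higher in hippocampus for 48 of 48 labels, from 5262 to 7970 (median 6782) against 4090 to 6256 (median 5216). Aqp4 differed by 0.30 ± 0.05 (44 of 48 labels) and Gjb6 by 0.25 ± 0.04 (46 of 48 labels). The transporters each differed by 0.15 (SE 0.06 for Slc1a2, 0.02 for Slc1a3), both with 43 of 48 labels higher in hippocampus. Aldh1l1 went the other way, at -0.19 ± 0.03 (adjusted p = 3.18e-08), with 1108 to 1723 (median 1366) in hippocampus against 1228 to 1985 (median 1533) in prefrontal cortex, and 45 of 48 labels higher in prefrontal cortex. S100b did not pass the test, at -0.06 (95% interval -0.15 to 0.02, adjusted p = 0.189), with 35 of 48 labels higher in prefrontal cortex. This fit took all libraries as independent and did not pair the tissues by label. In all, 9 of the 10 genes were called, in a comparison in which 65.9% of the 20620 genes tested were called. Without the 14 labels described below S100b passed too. The deposited values were scaled within each tissue. The median log2 difference over all genes was 0.02, and edgeR and DESeq2 on the recovered reads each called 9 of the 10. The 65.9% belongs to the limma fit of all libraries. The shares of all genes called without the 14 labels, by edgeR and by DESeq2 are not given here.

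Related genes are given for description, and their counts are read against the 65.9% of all genes that were called in this comparison, 7285 higher and 6308 lower in hippocampus. Of 51 further astrocyte markers, 33 were higher in hippocampus and 8 lower, with a median log2 difference of 0.21. Slc14a1, a urea transporter, was higher by 1.13 ± 0.05 and Lcat by 0.68, whereas Chrdl1, a secreted antagonist of bone morphogenetic proteins, was lower by far, at -2.51 ± 0.05 (medians 130 and 757). Further genes raised in reactive astrocytes were called in both directions. Of 10 shared by several injuries, 1 was higher (Osmr, 0.48) and 3 lower (Timp1, -0.50, Aspg, -0.47, and Steap4, -0.42). Of 11 described after endotoxin, 3 were higher, among them Amigo2 at 1.47, and 4 lower, among them H2-T23 at -1.07. Of 11 described after ischaemia, 6 were higher, led by Cd109 at 2.91 ± 0.06 (medians 222 and 28), and 3 lower, among them Sphk1 at -1.46.
Genes that work with the other members were also called in both directions, as genes were in general. In the endfoot complex 8 of 12 genes were higher in hippocampus (among them Hepacam, 0.26, and Mlc1, 0.22) and 1 was lower (Dtnb, -0.17). Of 11 connexins and pannexins, 4 were higher (Gjc3, 0.37) and 5 lower (Gjb2, -0.49). Of 14 genes of glutamate uptake and the glutamine cycle, 5 were higher (Slc1a1, 0.43) and 5 lower (Gls2, -0.50). Of 10 intermediate filament genes, 3 were higher (Synm, 0.31) and 4 lower (Lmna, -0.56). Of 6 genes listed with S100b and Serpina3n, 2 were higher (Ager, 0.52) and S100a6 was lower, at -0.65.
Markers of other cells moved between the tissues as well. All 10 oligodendrocyte markers were higher in hippocampus (median 0.34), and 8 of 10 ependymal and choroid plexus markers were higher, with a median of 2.32 and Ttr at 7.70. The summed level of the latter ran from 1100 to 96857 in hippocampus and from 389 to 775 in prefrontal cortex, with none of the 10 at 0 throughout a tissue. In the hippocampal library with the highest sum, saline control male replicate 1, Gfap was 7098, in the lower part of its range. Vim was 991 there, above its hippocampal median of 939. Of 9 markers of adult neural stem cells, 3 were higher, among them Hopx at 1.27, and 4 lower. The part of other cell types in the tissue differences was not tested. In bulk tissue, fewer cells of a type and less RNA per cell cannot be told apart.

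Before the treatments are compared, 14 labels need description. In both tissues these labels had a higher share of reads in 191 genes of ribosomal proteins and nuclear-encoded oxidative phosphorylation: 1.31% to 1.49% against 0.935% to 1.15% in hippocampus, and 1.28% to 1.46% against 0.903% to 1.22% in prefrontal cortex. The same 14 separated on the first principal component in each tissue, computed without the 10 genes (25.3% and 27.9% of the variance). In prefrontal cortex the widest gap in the share itself gave 16 labels, the 14 and 2 more. They were unevenly spread over the inhibitor groups, 12 of 24 controls and 2 of 24 PLX, and more evenly over MIA (6 of 24) and saline (8 of 24), and females (6 of 25) and males (8 of 23). They are a grouping made from the data, not by the study, so their values are described without a test.
Slc1a2 separated these libraries completely. In hippocampus the 14 ranged from 65875 to 81594 (median 72722) and the other 34 from 94594 to 124217 (median 114913). In prefrontal cortex they ranged from 58823 to 75110 (median 62326) against 87425 to 118521 (median 102442). The geometric mean level was 0.645 and 0.626 times that of the other libraries, and the log2 difference among controls alone was -0.61 and -0.66. Such a complete separation toward lower values was found for 4.34% of genes in hippocampus and 5.56% in prefrontal cortex. Slc1a3, which encodes the other transporter, differed by -0.07 in each tissue.
S100b lay higher in the 14 libraries. Its values were 2020 to 3476 (median 2707) against 1786 to 2575 (median 2029) in hippocampus, and 2221 to 3566 (median 2802) against 1744 to 2349 (median 2153) in prefrontal cortex. The ranges overlapped in both tissues, with 9 of the 14 above all others in hippocampus and 13 in prefrontal cortex. Among all genes, 2.27% in hippocampus and 2.33% in prefrontal cortex were higher in all 14 libraries than in any other. Aqp4 lay lower, at a median of 3888 against 4889 in hippocampus and 3062 against 3926 in prefrontal cortex, again with overlap. For the other 7 genes the log2 differences were between -0.13 and 0.14. The summed level of the 51 further astrocyte markers was higher in the 14 libraries, at medians of 347683 against 316634 in hippocampus and 317457 against 286870 in prefrontal cortex. That sum leaves out the 10 genes.

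**Figure D2:**
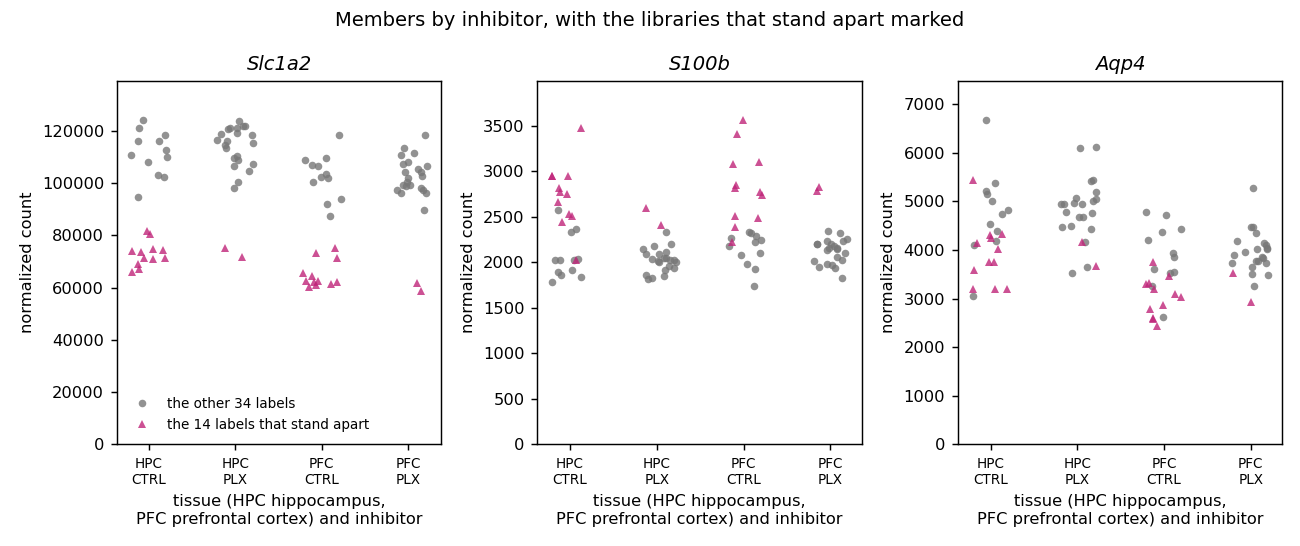
Normalized counts of Slc1a2, S100b and Aqp4 in control (CTRL) and PLX libraries of each tissue, 1 point per library, with the 14 labels that stand apart drawn as triangles and the other 34 as circles. Slc1a2 falls into 2 bands, and in hippocampus its upper band spans 94594 to 124217 over controls and PLX together.

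The inhibitor comparison asks whether the astrocyte messages changed where microglia had been targeted. Averaged over MIA and sex, 2 of the 10 genes passed the test in hippocampus, where 40.0% of the 19938 genes tested did, and 3 in prefrontal cortex, where 37.8% of 19841 did. Slc1a2 ranged from 65875 to 124217 (median 88094) in hippocampal controls and from 71853 to 123848 (median 114913) with PLX. In prefrontal cortex it ran from 60284 to 118521 (median 81268) and from 58823 to 118271 (median 101201). The groups overlapped over most of the range in both tissues. The log2 difference, PLX minus control, was 0.30 ± 0.08 in hippocampus (limma, adjusted p = 0.00281) and 0.28 ± 0.08 in prefrontal cortex (adjusted p = 0.00941). S100b ran from 1786 to 3476 (median 2401) in hippocampal controls and from 1813 to 2599 (median 2031) with PLX. It was lower with PLX, at -0.20 ± 0.06 in hippocampus (adjusted p = 0.0109) and -0.17 ± 0.06 in prefrontal cortex (adjusted p = 0.0197). Aqp4 in prefrontal cortex ran from 2444 to 4775 (median 3395) in controls and from 2922 to 5281 (median 3878) with PLX. It was higher by 0.20 ± 0.06 in prefrontal cortex (adjusted p = 0.00928), while its 0.16 ± 0.07 in hippocampus did not pass (adjusted p = 0.0601). These are the 3 genes that differed most in the 14 labels, of which 12 were controls. In hippocampus the count rose from 2 to 4 when any 1 of 6 libraries was left out: MIA control female 5, MIA control male 2, saline control female 2, saline control female 6, saline control male 2 or saline PLX female 1.
With a term for the 14 labels in the fit, 0 of the 10 genes were called in either tissue by limma, with 1 in each tissue at an unadjusted p under 0.05, and edgeR with the term gave the same counts. The background with the term was 0.376% in hippocampus and 0.217% in prefrontal cortex. At an unadjusted p under 0.05 by limma were 2954 of 19938 genes and 2446 of 19841 in the same order. Slc1a2 then differed by 0.04 in hippocampus and -0.01 in prefrontal cortex, S100b by -0.02 and 0.01, and Aqp4 by 0.05 and 0.07. Among the libraries outside the 14, Slc1a2 in hippocampus ran from 94594 to 124217 (median 111723) in 12 controls and from 98064 to 123848 (median 115641) in 22 PLX libraries, and in prefrontal cortex from 87425 to 118521 (median 102978) against 89867 to 118271 (median 102349). S100b medians were 2025 against 2029 in hippocampus and 2202 against 2150 in prefrontal cortex. The inhibitor and whatever sets the 14 labels apart are unevenly crossed, with 2 PLX labels among the 14.
Gjb6, the connexin 30 gene, had another pattern. Without the term it did not pass (0.15 ± 0.06, adjusted p = 0.0514, in hippocampus, and 0.13 ± 0.06, adjusted p = 0.0801, in prefrontal cortex). With the term it was the gene at an unadjusted p under 0.05 in each tissue, at 0.21 ± 0.07 (adjusted p = 0.148) and 0.19 ± 0.06 (adjusted p = 0.191). Its medians outside the 14 labels were 1621 in controls and 1799 with PLX in hippocampus, and 1336 and 1508 in prefrontal cortex, with wide overlap.
The reactive markers did not pass. Gfap ran from 6591 to 20583 (median 9240) in hippocampal controls and from 7833 to 12819 (median 8989) with PLX, a log2 difference of -0.01 (95% interval -0.18 to 0.17). In prefrontal cortex it ran from 2087 to 6246 (median 3114) in controls and from 2263 to 10269 (median 3313) with PLX, a difference of 0.20 (-0.02 to 0.42, adjusted p = 0.145). Vim differed by -0.02 and -0.04, and Serpina3n by 0.03 and 0.04. For Gfap the intervals leave room for changes of up to 0.42 on the log2 scale in prefrontal cortex. The difference between tissues in the inhibitor effect was called for 0 of the 10 genes by limma, edgeR and DESeq2 (background 0%), with 0 at an unadjusted p under 0.05 by each tool, and ran from -0.20 (Gfap, 95% interval -0.49 to 0.08) to 0.02.

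**Figure D3:**
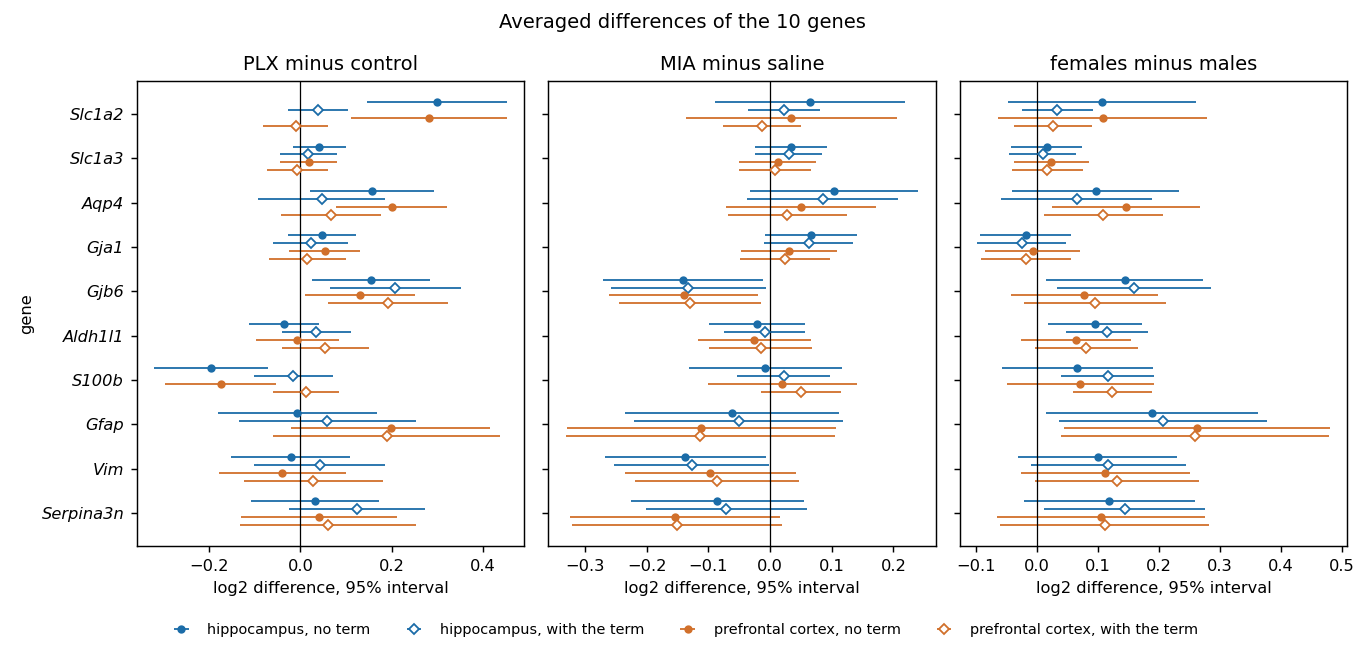
Log2 differences with 95% intervals of the 10 genes for inhibitor, MIA and sex in each tissue, without (filled circles) and with (open diamonds) a term for the 14 labels. The inhibitor differences of Slc1a2, S100b and Aqp4 lie nearer to 0 with the term, as for Slc1a2 in hippocampus (0.30 and 0.04).

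Within single groups of MIA or saline and of 1 sex, the inhibitor gave 0 calls among the 80 tests of the 10 genes by limma. An unadjusted p under 0.05 was found for 9 of the 80. Over all genes, such a p was found for 1538 to 5632 of 19938 in single hippocampal comparisons. In prefrontal ones it was found for 1505 to 5506 of 19841. The share of all genes called was 0.0301% in saline females, 0.00502% in MIA females, 0.0251% in saline males and 0.00502% in MIA males of hippocampus. In prefrontal cortex it was 0.0252%, 0.0252%, 0.338% and 0.0202% in the same order. edgeR called 0 and DESeq2 called 1, Aqp4 in saline males of prefrontal cortex (0.44 on the log2 scale, adjusted p = 0.0249), for which limma gave 0.45 ± 0.12 (adjusted p = 0.0590). That comparison set 6 saline control males, 4 of them among the 14 labels, against 6 saline PLX males, 1 of them among the 14. The count became 3 when saline control male 6 of prefrontal cortex was left out, 2 without saline PLX male 5 of that tissue, and 1 without any of 7 other libraries.
Other genes of these pathways were called without the term at shares to be read against the 40.0% and 37.8% of all genes. Among the 51 further astrocyte markers, 8 rose and 15 fell in hippocampus and 6 rose and 13 fell in prefrontal cortex, with Daam2 at 0.35 and 0.28 and Slc25a18, a mitochondrial glutamate carrier, at -0.21 and -0.22. Among the 6 genes listed with S100b and Serpina3n, 3 fell in hippocampus and 4 in prefrontal cortex, S100a16 at -0.35 and -0.37. In the endfoot complex of 12 genes, 5 rose and 1 fell in hippocampus and 6 rose and 1 fell in prefrontal cortex, with Sntb2 at 0.32 and 0.37. With the term 0 of the genes in these lists were called in either tissue. Microglial markers, the population the inhibitor targets, were lower for 6 of 10 in hippocampus and 7 of 10 in prefrontal cortex without the term, and 3 of 10 and 4 of 10 with it, when 1 of 10 was higher in each.

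MIA against saline was called for 0 of the 10 genes by limma in hippocampus and in prefrontal cortex, where 0% of all genes tested were called (949 and 1183 genes at an unadjusted p under 0.05). Members at an unadjusted p under 0.05 were 2 in hippocampus and 1 in prefrontal cortex by limma, and 1 in each tissue by edgeR and by DESeq2, which also called 0. Gjb6 was among them in both tissues. Its difference, MIA minus saline, was -0.14 ± 0.06 in each, with 95% intervals of -0.27 to -0.01 (adjusted p = 0.997) and -0.26 to -0.02 (adjusted p = 0.804). By group its median in hippocampus was lowest in MIA control males (1457, range 979 to 1678) and highest in saline PLX females (2031, range 1650 to 2197), and in prefrontal cortex lowest in MIA control males (1284, range 1007 to 1424). Vim in hippocampus differed by -0.14 (95% interval -0.27 to -0.01). Gfap differed by -0.06 in hippocampus (95% interval -0.24 to 0.11) and by -0.11 in prefrontal cortex (-0.33 to 0.11). Serpina3n differed by -0.09 (-0.23 to 0.05) and -0.15 (-0.32 to 0.02) in the same order. These intervals are for differences averaged over sex and inhibitor, and they hold no rise of Gfap or Serpina3n beyond 0.11 on the log2 scale. Within single groups the intervals are wider, as for Gfap in hippocampal PLX females (-0.35 to 0.34). Libraries of a shared litter would make all of them too narrow.
Within single groups of inhibitor and sex, 0 of 80 tests were called by limma, edgeR and DESeq2, with 2 at an unadjusted p under 0.05 by limma. The background there was 0% in 7 of the 8 comparisons and 0.00502% in the other. The larger of these 2 was Gjb6 in hippocampal control males, at -0.36 ± 0.13. The MIA by inhibitor interaction, which asks whether the inhibitor changed the effect of MIA, was called for 0 of 40 tests by limma, edgeR and DESeq2 (background 0%), with 0 at an unadjusted p under 0.05 by each. It ranged from -0.33 (Aqp4 in prefrontal males, 95% interval -0.68 to 0.02) to 0.22.

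**Figure D4:**
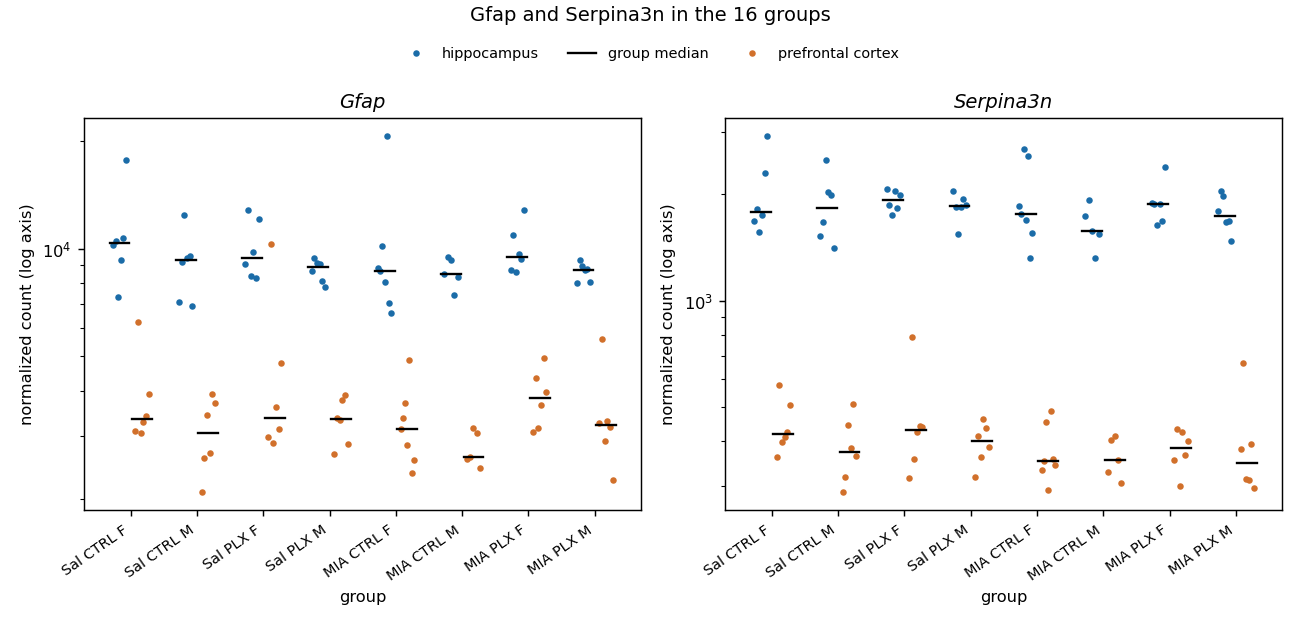
Normalized counts of Gfap and Serpina3n by group in each tissue, 1 point per library on a log axis, with bars at the group medians (Sal, saline; CTRL, control; F, female; M, male). Single libraries stand above their groups: Gfap reaches 20583 and 17674 in 2 hippocampal female groups. In prefrontal cortex it reaches 10269 in saline PLX females and 5585 in MIA PLX males.

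Gfap was spread most within groups. Hippocampal group medians ran from 8510 in MIA control males to 10352 in saline control females, while single libraries reached 20583 (MIA control female 5) and 17674 (saline control female 6). In the first library Serpina3n was 2571, Vim 1452 and Aqp4 6680, and in the second 2921, 1414 and 5452. In prefrontal cortex group medians of Gfap ran from 2621 to 3826, and saline PLX female 2 reached 10269 with Serpina3n at 790 and Vim at 1426. These 3 libraries, chosen after their values were seen, each had high Vim and Serpina3n for its tissue. The hippocampal library of the same label as the prefrontal one had Gfap at 12793. Summed microglial markers were 10208 and 13011 in the first 2 libraries, against a range of 8181 to 13011 over hippocampus, and 9290 in the prefrontal library. Their part was not tested. Libraries of both sexes stood above their groups in Gfap. Among them was MIA PLX male 2 of prefrontal cortex, with Gfap at 5585 and Serpina3n at 666.
Females against males gave 0 calls among the 10 genes by limma in both tissues, where 0.246% and 0.141% of genes were called, and 0 by edgeR and DESeq2. Over all genes, limma gave an unadjusted p under 0.05 for 1566 of 19938 in hippocampus and 1200 of 19841 in prefrontal cortex. Of the 10 genes, 3 in hippocampus and 2 in prefrontal cortex were at such a p by each tool. Gfap was among them in both, at 0.19 ± 0.09 (95% interval 0.02 to 0.36, adjusted p = 0.573) and 0.26 ± 0.11 (0.04 to 0.48, adjusted p = 0.714), female minus male. In hippocampus it ran from 6591 to 20583 (median 9335) in 25 female libraries and from 6900 to 12386 (median 8773) in 23 male ones. Aldh1l1 in hippocampus differed by 0.10 ± 0.04 (adjusted p = 0.492) and Aqp4 in prefrontal cortex by 0.15 ± 0.06 (adjusted p = 0.714).

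The same label was measured in both tissues, so a deviation seen in 1 tissue can be looked up in the other. The question was put to the 34 labels outside the 14, with each value set against the mean of its group. Gjb6 deviated together in the tissues, with Pearson's r = 0.77 (permutation p = 2e-05, adjusted over the 10 genes 0.0002) and Spearman's rho = 0.79 (permutation p = 1e-05, the smallest that 100000 permutations can give). So did Gfap, with r = 0.61 (permutation p = 0.00017, adjusted 0.00085) and rho = 0.61 (permutation p = 0.00135, adjusted 0.00675). Without the 2 labels farthest from the median the r was 0.76 for Gjb6 and 0.63 for Gfap. For the other 8 genes the r ran from -0.06 (Slc1a3) to 0.41 (Gja1 and Aldh1l1, each with an adjusted permutation p of 0.0694). Serpina3n reached 0.33 and Vim 0.08. Over 19096 genes the median r was 0.165, and 0.702% had an r as high as Gjb6 and 3.77% one as high as Gfap. Among the labels of the 14 that share a group with another, 12 in number, 0 of the 10 genes passed after adjustment and 5 had a permutation p under 0.05, among them Gjb6 (r = 0.86).

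**Figure D5:**
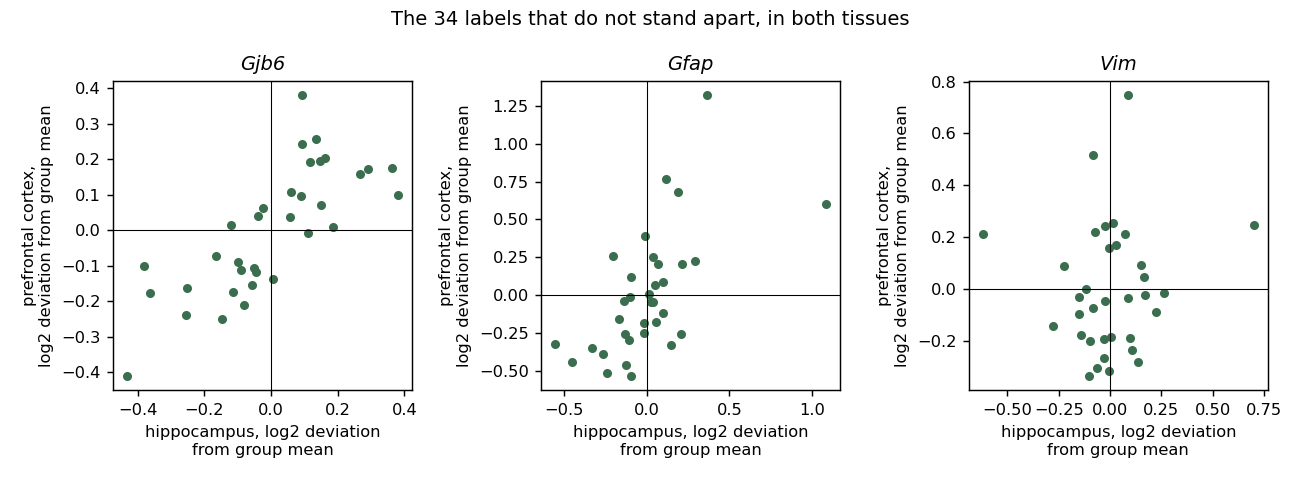
Deviation from the group mean in hippocampus against that in prefrontal cortex for Gjb6, Gfap and Vim, 1 point for each of the 34 labels, on the log2 scale. Gjb6 (r = 0.77) and Gfap (r = 0.61) rise together across the tissues and Vim (r = 0.08) does not.

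Genes whose values followed each member most closely within a tissue were found by Pearson correlation of log2 values over its 48 libraries, after removal of group means and the term for the 14 labels. These are descriptions of libraries that share depth and preparation. In prefrontal cortex Gfap and Serpina3n were each other's nearest gene (r = 0.85, 0.78 without the 2 farthest libraries), and Nupr1 was among the nearest 3 of Gfap (0.78), Serpina3n (0.75) and Vim (0.77). In hippocampus the genes nearest to Gfap were the microglial genes Tmem119 (0.81) and Ctss (0.76) and then Serpina3n (0.75), and without the 2 farthest libraries these were 0.70, 0.66 and 0.68. Vim was nearest to Anxa2 (0.80) in hippocampus, where its r was 0.51 with Gfap and 0.19 with Serpina3n.
The gene nearest to Gjb6 was Paqr8 (0.86) in hippocampus, followed by Sdc4 (0.84) and Tsc22d3 (0.83). In prefrontal cortex Plin4 (0.90), Mfsd2a (0.89) and Fkbp5 (0.88) were nearest. Slc1a2 was nearest to the bicarbonate transporter Slc4a4 (0.82) in hippocampus and to Kif5c (0.76) in prefrontal cortex. Slc1a3 was nearest to Gpm6b (0.83) and to Luzp2 (0.76), Aqp4 to Sv2c (0.81) and to Ednrb (0.81), and Gja1 to Aqp4 (0.75) and to Tmem47 (0.76). Aldh1l1 had weaker neighbours in hippocampus (Stk36, 0.63) than in prefrontal cortex (Fam20a, 0.74), and S100b was nearest to Rab31 (0.80) and to Arrb1 (0.72, 0.57 without the 2 farthest libraries). Except for Gfap and Serpina3n in prefrontal cortex, and Aqp4 for Gja1 and Serpina3n for Gfap in hippocampus, the nearest 3 genes of a member were not themselves members.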

How the data were processed

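Bulk messenger RNA libraries were made with a stranded ligation kit, per the labels' protocols, and the submitters' processing notes name Trimmomatic, STAR 2.6.1d and the build GRCm39. No source used here names the counting tool. The deposited values are a signal, namely counts that the authors divided by 1 factor per library. Multiplying by the recovered factor gave whole reads for all values of all 96 columns (tolerance 0.01), although in 19 columns the factor lay within 1% of 1 and so carries little information. Reads per library were 22.2 M to 26.7 M for hippocampus and 22.8 M to 25.9 M for prefrontal cortex.

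Each tissue was fitted with limma 3.58.1 (R 4.3.3) on log2(signal + 1), with 8 group means, a trend in the variance and genes of at least 10 in at least 5 libraries. Tissues were compared in 1 fit of all 16 groups. Two-sided p-values were adjusted by Benjamini-Hochberg over all genes tested, and genes were called at an adjusted p under 0.05. Fold changes are on the log2(signal + 1) scale. edgeR 4.0.16 (quasi-likelihood) and DESeq2 1.42.0 were run on the recovered reads. The fits were tested on simulated data before use. Deviations across tissues used 100000 permutations of labels within groups. Levels per kilobase used the union of each gene's exons.

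The 10 genes and the lists of related genes were chosen with earlier results of these data known. All 10 genes are named whatever their result. From each list, the genes named are called ones with the smallest p, at most 3 in each direction, and the nearest genes are the 3 with the highest correlation; predicted genes are left out of the naming. A gene that this rule would name is not reported here.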

Additional observations from a re-analysis of the deposited data

Results flagged for a closer look

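A library was singled out when its gap to the nearest of the other libraries of its group exceeded Dixon's 95% critical value for the group's range. Over 160 sets of 1 gene in 1 group this happened 21 times, and 11 of the 21 were in libraries of the 14 labels that stand apart. Chance gives about 1 in 20 for independent, normally spread values, whereas these sets share libraries. MIA PLX females and saline PLX males each held 1 of the 14 labels, so flags there can repeat that grouping. The values are normalized counts, with the range of the other libraries of the group in parentheses.

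Gfap gave 5 of them, all above their group. In hippocampus it was 20583 in MIA control female 5 (6591 to 10161) and 17674 in saline control female 6 (7322 to 10717). In prefrontal cortex it was 10269 in saline PLX female 2 (2867 to 4799), 6246 in saline control female 2 (3058 to 3932) and 5585 in MIA PLX male 2 (2263 to 3306).

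Serpina3n was high in 2 of the same prefrontal libraries, at 790 in saline PLX female 2 (315 to 442) and 666 in MIA PLX male 2 (296 to 395). It was also high in hippocampus in MIA PLX female 6, at 2387 (1637 to 1897).

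Slc1a2 was low in both PLX labels among the 14, in both tissues. In MIA PLX female 6 it was 71853 in hippocampus (110561 to 123848) and 58823 in prefrontal cortex (97258 to 110970). In saline PLX male 5 it was 75227 (106730 to 121778) and 61811 (98023 to 118271). S100b was high in 3 of these 4 libraries, at 2599 (2028 to 2197) and 2823 (2139 to 2349) in MIA PLX female 6 and at 2789 (1980 to 2255) in prefrontal saline PLX male 5.

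Aqp4 was low in MIA PLX female 6 of prefrontal cortex, at 2922 (3957 to 4473), and in MIA PLX male 2 of hippocampus, at 4174 (4778 to 5044). It was high in saline PLX female 2 of prefrontal cortex, at 5281 (3640 to 4195). Aldh1l1 was high in prefrontal MIA control female 4, at 1985 (1417 to 1622), and in prefrontal MIA PLX male 2, at 1947 (1366 to 1529), and low in hippocampal saline control male 2, at 1183 (1377 to 1467).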

How the results depend on the processing

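The count of inhibitor calls among the 10 genes depended on the 14 labels. In hippocampus (2 genes) it was 0 with a term for them, without their libraries and by edgeR with the term, and 4 with array weights. In prefrontal cortex (3 genes) it was 0 with the term, without those libraries, with a term for 16 labels and by edgeR with the term. Signs also turned, with differences near 0: S100b in hippocampus was 0.0157 without the libraries; in prefrontal cortex Slc1a2 was -0.0105 with the term, -0.0353 with the term for 16 labels and -0.0123 by edgeR with the term, and S100b was 0.0125, 0.0337 and 0.0102 under these and 0.0220 without the libraries. The 16-label term and edgeR with the term were chosen after seeing the data. Within single groups the inhibitor count (0) was 1 with a filter of 50 and by DESeq2, and 15 with array weights. Sex in prefrontal cortex (0) gave 2 with array weights. Pooling all 48 labels raised the genes that deviated together across tissues from 2 to 8. The shares of all genes called with array weights, with the filter of 50 and by DESeq2 are not given here. These counts therefore do not set the 10 genes apart from other genes. The cause of the changes with array weights and the filter was not tested.

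Leaving out 1 library at a time gave 2 to 4 inhibitor calls in hippocampus, 3 to 4 in prefrontal cortex and 0 to 3 within single groups, always 9 for tissue, and 0 for MIA, its interaction and sex. A block was also added, on the sample number in fits of 1 tissue and on the label in fits of both (consensus correlation 0.376). It left 9 calls for tissue, 2 and 3 for the inhibitor and 0 for the others. The numbers share only a label: deviations of same-numbered libraries of other groups correlated at a median of -0.004 in hippocampus and -0.003 in prefrontal cortex, while libraries of 1 label in both tissues correlated at a median of 0.113, and 32 of 40 labels correlated best with their own. With 5 to 7 libraries per group, MIA and sex differences smaller than the intervals given could not be resolved.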

Other observations

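Of 11 genes of STAT3 signalling, the pathway through which cytokines raise Gfap, 6 were higher in hippocampus and 4 lower, where 65.9% of all genes were called (median log2 difference 0.09, against 0.02 over all genes). The receptor gene Il6ra differed by 0.69 and the cytokine gene Lif by 0.86, while the feedback inhibitor gene Socs3 differed by -1.54 and Jak2 by -0.49. Of 12 genes of folate one-carbon metabolism, to which Aldh1l1 belongs, 6 were higher and 1 lower. Shmt1 differed by 0.93 and Tyms by 0.89, in the direction opposite to Aldh1l1 (-0.19). With the inhibitor, without the term for the 14 labels, 5 of 11 STAT3 genes rose and 0 fell in hippocampus (40.0% of all genes were called), and 6 rose and 0 fell in prefrontal cortex (37.8%), among them Il6st at 0.19 and 0.21. With the term 0 of the STAT3 and folate genes were called in either tissue.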
